A study of Homo sapiens with 9 samples.

Results

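The p53 pathway target genes described here are 32 genes whose transcription p53 is known to activate, chosen by symbol and found as 32 rows among the 21229 genes of the deposited count table. They were divided by role into 8 genes of cell cycle arrest and of feedback on p53, 15 genes of apoptosis, 4 genes of DNA repair and 5 genes of metabolism. The RNA came from haematopoietic cells grown out of H1, a human embryonic stem cell line in wide use. The 9 libraries formed 3 groups of 3. These were CD90+ cells with the genotype GATA2 overexpression, CD90+ cells of the control genotype, and CD38+ cells of the control genotype, where CD90 is the surface product of THY1 and CD38 is a surface enzyme of many maturing blood cells. The labels do not give the vector, the promoter or the time of GATA2 expression, and they leave it unsaid whether the 3 libraries of each group were cultured apart, so p-values measure the spread between these libraries, which may be technical.

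The transcription factor p53 is held at a low level by MDM2, a ubiquitin ligase that p53 itself induces, and it accumulates when DNA damage, ribosomal stress or other signals release it from MDM2. It then raises transcription of genes that stop the cell cycle, repair DNA, change metabolism and redox balance, or start apoptosis through mitochondria and death receptors. Blood stem and progenitor cells are known for low thresholds of p53-dependent arrest and apoptosis. The protein is controlled mainly by its stability, which RNA counts do not measure.

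Of the 32 genes, 25 had a start site in RefSeq's table of promoters, which holds 250 bases before and 50 bases from each start on GRCh38.p14. The windows were searched on both strands for the p53 decamer, the motif of 10 bases that p53 binds as a pair, with no mismatch. In all, 7 of 37 windows of these genes held it (18.9%), against 6.63% of 35116 promoters, and the 7 windows belonged to 7 genes (PLK2, FAS, AEN, RPS27L, DDB2, SESN1 and FDXR). A search was made as well for a pair of decamers with up to 2 mismatches in all and a spacer of up to 13 bases. No mismatch was allowed at the fixed C and G of either decamer. This search found 6 of the 37 windows (16.2%), against 2.93% of all promoters. These 6 windows belonged to 5 genes (MDM2, FAS, AEN, DDB2 and FDXR), because 2 overlapping windows of MDM2 held the same pair. The ATF4 motif TGATGNAAN, also searched on both strands, was in 1 of the 37 windows (2.7%), that of PLK3, against 3.61% of all promoters. GADD45A, TNFRSF10A, TNFRSF10B, TNFRSF10C, TP53INP1, PHLDA3 and RRM2B were not analysed for promoters here. A match describes letters and is not a site shown to be bound, and p53 sites are often in introns or farther from the start, outside these windows. The windows of DDB2, AEN, RPS27L and FDXR are printed because they hold a decamer near the start and because these 4 genes did not change alike, as described further on. Capitals mark the decamers.
DDB2, chr11:47214724-47215023, plus strand: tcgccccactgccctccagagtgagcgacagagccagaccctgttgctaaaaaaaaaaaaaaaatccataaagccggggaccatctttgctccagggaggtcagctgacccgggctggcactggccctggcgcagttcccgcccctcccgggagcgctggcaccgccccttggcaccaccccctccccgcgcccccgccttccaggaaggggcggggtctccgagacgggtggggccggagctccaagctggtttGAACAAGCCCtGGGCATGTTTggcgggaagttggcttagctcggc
AEN, chr15:88621090-88621389, plus strand: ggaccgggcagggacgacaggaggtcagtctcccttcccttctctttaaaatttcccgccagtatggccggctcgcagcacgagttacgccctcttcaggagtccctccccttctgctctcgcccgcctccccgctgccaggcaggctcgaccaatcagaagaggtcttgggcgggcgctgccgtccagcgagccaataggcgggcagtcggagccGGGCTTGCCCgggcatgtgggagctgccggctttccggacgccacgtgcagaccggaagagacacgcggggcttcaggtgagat
RPS27L, chr15:63157428-63157727, minus strand: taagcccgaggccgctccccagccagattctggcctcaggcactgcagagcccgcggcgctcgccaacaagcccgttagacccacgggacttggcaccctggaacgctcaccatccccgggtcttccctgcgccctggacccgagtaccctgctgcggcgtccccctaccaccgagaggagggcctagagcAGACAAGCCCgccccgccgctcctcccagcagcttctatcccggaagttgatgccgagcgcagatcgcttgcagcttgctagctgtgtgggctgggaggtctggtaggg
FDXR, chr17:74872945-74873244, minus strand: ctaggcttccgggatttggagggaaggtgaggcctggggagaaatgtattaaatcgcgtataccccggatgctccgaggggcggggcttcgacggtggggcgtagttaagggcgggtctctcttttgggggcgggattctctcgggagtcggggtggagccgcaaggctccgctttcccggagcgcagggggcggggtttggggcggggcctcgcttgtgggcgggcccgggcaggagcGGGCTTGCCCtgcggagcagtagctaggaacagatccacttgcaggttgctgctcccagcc
The DDB2 window held a pair of decamers, GAACAAGCCC and GGGCATGTTT, 1 base apart, from base 6 to base 26 counted from the start as base 1. The decamers of PLK2 (AGACTTGCTT), FAS (GGACAAGCCC) and SESN1 (GGACAAGTCT) began 132, 122 and 49 bases before the start of their windows' transcripts.

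Counts assigned to genes totalled 37500192 to 39582736 per GATA2 overexpression library, 42577569 to 47261093 per CD90+ control library and 42695005 to 45561088 per CD38+ control library. Levels are CPM, counts scaled to 1000000 per library after adjustment of library sizes by TMM factors. GATA2 itself was at 363, 388 and 377 CPM with GATA2 overexpression, 86.6, 89.5 and 85.9 CPM in CD90+ controls and 551, 576 and 581 CPM in CD38+ controls. The 3 libraries with GATA2 overexpression were above the CD90+ controls and below the CD38+ controls, and a GATA2 count cannot be assigned to a transgene or to the endogenous gene. THY1 ranged from 2.80 to 3.56 CPM with GATA2 overexpression and from 3.83 to 5.09 CPM in CD90+ control cells, and had 0 counts in the CD38+ control libraries, while CD38 ranged from 1.74 to 2.76 CPM with GATA2 overexpression, from 4.09 to 4.81 CPM in CD90+ controls and from 119 to 124 CPM in CD38+ controls. In bulk RNA, fewer cells of a type and less RNA per cell cannot be told apart.

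All 32 target genes passed the filter on low counts. With GATA2 overexpression, 10 of 32 were higher than in CD90+ control cells, 17 were lower and 5 did not pass the test (edgeR's quasi-likelihood test, Benjamini-Hochberg adjusted p under 0.05 over 16232 genes). Libraries did not overlap for 28 targets, against 80.4% of tested genes. Of all tested genes 38.0% were called higher, 39.6% lower and 77.6% in either direction in that comparison, so the number of calls alone is near the background. The median log2 fold change was -0.23 over the targets and -0.039 over all tested genes. In CD90+ control cells against CD38+ control cells, 3 of 32 were higher, 28 were lower and 1 did not pass the test, where 41.1% of all tested genes were called higher, 39.3% lower and 80.4% in either direction. The median was -1.13 over the targets and 0.034 over all tested genes. At least 2-fold falls were found for 19 of the 32 targets, against 13.6% of tested genes, and 0 rose 2-fold, against 22.6%. With library size only 10 fell and 1 rose 2-fold, and with upper-quartile factors 13 and 1. In this comparison the libraries of the groups did not overlap for 32 of 32 targets, against 82.8% of tested genes. In GATA2 overexpression CD90+ cells against CD38+ control cells, 4 were higher, 26 were lower and 2 did not pass the test, with 43.3% of all tested genes called higher, 39.9% lower and 83.2% in either direction. At least 2-fold falls numbered 17 (21.2% of tested genes) and 2-fold rises 1 (23.0%), 30 targets did not overlap (83.0%), and the median was -1.16, against 0.071. The comparisons share libraries, so their values are given side by side and not as separate evidence.

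**Figure D1:**
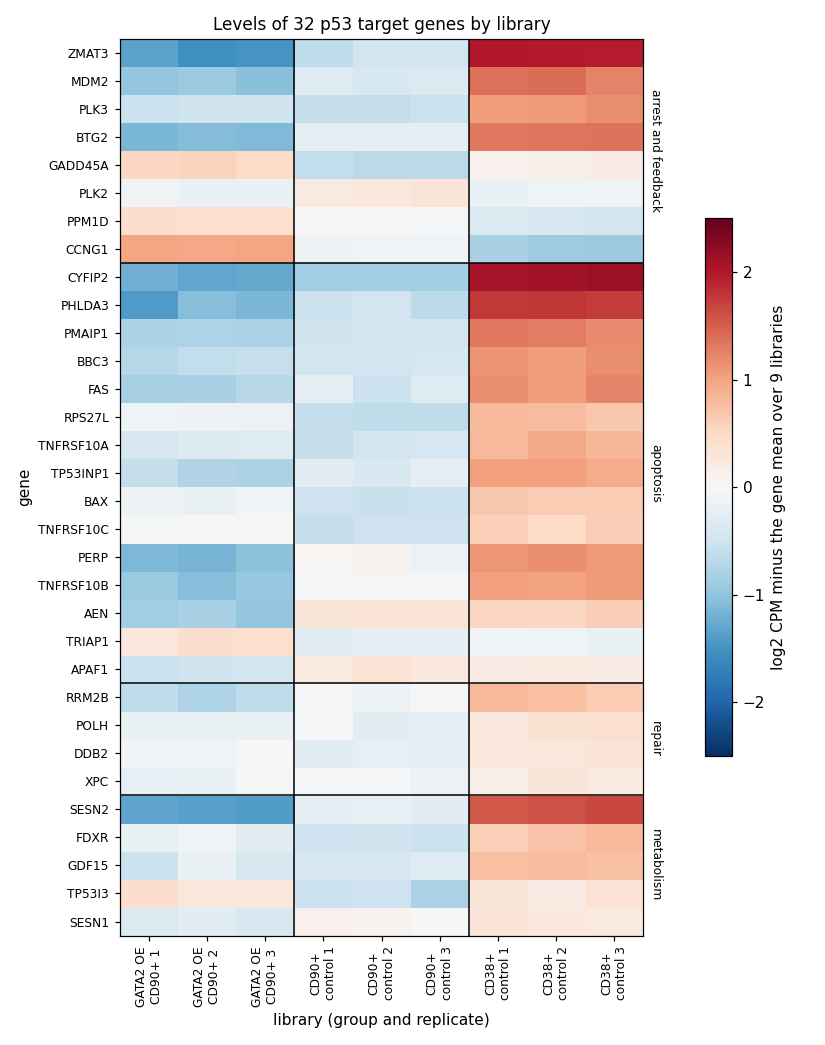
Heat map of the 32 p53 target genes (rows, by role) in the 9 libraries (columns; GATA2 OE is GATA2 overexpression), with colour giving log2 CPM minus the gene's mean over all libraries. Most rows are red in the CD38+ control libraries, CCNG1 and PPM1D run the other way, and the 3 libraries of a group look alike.

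Scaling mattered for genes with small changes. TMM factors averaged 0.980 in GATA2 overexpression, 1.16 in CD90+ control and 0.876 in CD38+ control libraries. With library size only, the all-gene median shifted, on the log2 scale, by -0.25 for GATA2 overexpression over CD90+ control and by 0.41 for CD90+ over CD38+ control. With upper-quartile factors the shifts were -0.11 and 0.26. In the first comparison 49.0% of all calls were on the higher side with TMM factors and 35.5% with library size only. In the second these shares were 51.2% with TMM factors, 71.2% with library size only and 64.3% with upper-quartile factors. Targets called higher and lower with GATA2 overexpression numbered 8 and 21 with library size only and 9 and 18 with upper-quartile factors, and in CD90+ against CD38+ control cells 7 and 23, and 5 and 24. Relative to the median of all genes, the median of the targets was -0.20 and -1.16 in the 2 comparisons under these 3 scalings, as it must be where a scaling shifts every gene alike. For GATA2 overexpression over CD90+ control it was -0.092 with no filter on low counts and -0.28 with a minimum of 1 CPM.

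MDM4 encodes a relative of MDM2 that blocks p53 without degrading it. MDM4 had 48.5, 52.6 and 51.8 CPM with GATA2 overexpression, 58.3, 58.4 and 57.2 CPM in CD90+ controls and 64.1, 63.5 and 63.2 CPM in CD38+ controls. It fell 1.14-fold (log2 fold change -0.19 ± 0.039 SE, edgeR adjusted p = 3.77e-04) with GATA2 overexpression and fell 1.10-fold (log2 fold change -0.13 ± 0.039 SE, edgeR adjusted p = 0.00445) in CD90+ against CD38+ control cells, the second a smaller change than the all-gene shifts of 0.41 with library size only and 0.26 with upper-quartile factors. Of 19 upstream regulators tested, among them the kinases ATM, ATR, CHEK1 and CHEK2, 6 rose and 12 fell with GATA2 overexpression, where the acetyltransferase gene EP300 fell 2.36-fold and CDKN2A, whose ARF product blocks MDM2, rose 2.40-fold. In CD90+ against CD38+ control cells 9 rose and 8 fell, with CDKN2A 3.83-fold lower and ATR, the kinase of replication stress, 2.85-fold higher. CDKN2A was low, at 3.85, 5.64 and 5.95 CPM with GATA2 overexpression. It averaged 2.14 CPM in CD90+ controls and 8.21 CPM in CD38+ controls. A count per gene does not tell the ARF transcript of CDKN2A from its other transcripts. Of all tested genes 38.0% rose and 39.6% fell with GATA2 overexpression, and 41.1% rose and 39.3% fell between the controls, so the second pair of counts is near the background. The median log2 fold changes of this list were -0.30 and 0.0060.

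**Figure D2:**
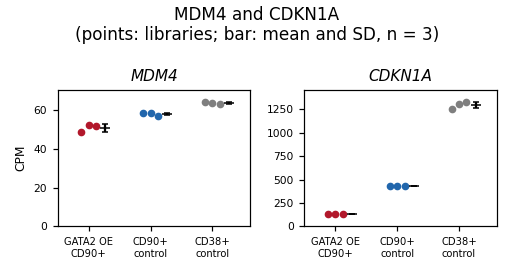
CPM of MDM4 and CDKN1A in the 3 groups (points are libraries, bars the mean and SD, n = 3). CDKN1A averages 129 CPM with GATA2 overexpression, 433 CPM in CD90+ controls and 1293 CPM in CD38+ controls, and MDM4 runs in the same order at 51.0 CPM with GATA2 overexpression, 58.0 CPM in CD90+ controls and 63.6 CPM in CD38+ controls.

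The arrest and feedback genes divided into genes that were highest in CD38+ control cells and genes that were highest in CD90+ cells. Of the 8 genes, 3 rose and 4 fell with GATA2 overexpression, and 3 rose and 5 fell in CD90+ against CD38+ control cells. Of all tested genes 38.0% rose and 39.6% fell in the first comparison, so the first pair of counts is near the background. In the second 41.1% rose and 39.3% fell. MDM2 had 37.4, 38.7 and 35.3 CPM with GATA2 overexpression, 58.9, 55.7 and 57.1 CPM in CD90+ controls and 189, 192 and 173 CPM in CD38+ controls. The groups did not overlap, and MDM2 (chromosome 12, 68808176 to 68850686, plus strand) fell 1.54-fold (log2 fold change -0.62 ± 0.045 SE, edgeR adjusted p = 1.34e-09) with GATA2 overexpression and fell 3.23-fold (log2 fold change -1.69 ± 0.042 SE, edgeR adjusted p = 4.75e-16) in CD90+ against CD38+ control cells. ZMAT3 had 7.26, 6.36 and 6.63 CPM with GATA2 overexpression, 11.8, 13.4 and 13.2 CPM in CD90+ controls and 73.7, 72.9 and 71.7 CPM in CD38+ controls. ZMAT3, an RNA-binding zinc finger protein that regulates splicing and restrains growth (chromosome 3, 179017223 to 179072279, minus strand), had the largest fall of this class in both comparisons, 1.89-fold with GATA2 overexpression and 5.68-fold in CD90+ against CD38+ control cells (edgeR adjusted p = 1.81e-09 and 2.28e-16). BTG2, an antiproliferative cofactor of mRNA deadenylation, averaged 158 ± 2.70 CPM with GATA2 overexpression, 292 ± 1.51 CPM in CD90+ controls and 859 ± 12.7 CPM in CD38+ controls (SD, n = 3 each). It fell 1.85-fold and fell 2.94-fold in the same 2 comparisons.

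CCNG1 and GADD45A were the 2 targets that rose at least 2-fold when GATA2 was overexpressed, against 7.98% of all tested genes, and AEN, SESN2 and PERP were the 3 that fell 2-fold, against 21.4%. With library size only neither CCNG1 (log2 fold change 0.84) nor GADD45A (0.92) reached 2-fold and 7 targets fell 2-fold, and with upper-quartile factors or a minimum of 1 CPM 1 rose and 5 fell 2-fold. CCNG1 had 733, 729.7 and 734 CPM with GATA2 overexpression, 339, 351 and 343 CPM in CD90+ controls and 211, 200.1 and 197 CPM in CD38+ controls. Every library of a group lay apart from those of the others, in the order opposite to MDM2. CCNG1 encodes cyclin G1, which acts with a phosphatase on MDM2 (chromosome 5, 163437569 to 163446151, plus strand). It rose 2.13-fold (log2 fold change 1.09 ± 0.026 SE, edgeR adjusted p = 5.37e-16) with GATA2 overexpression and rose 1.70-fold (log2 fold change 0.76 ± 0.027 SE, edgeR adjusted p = 5.64e-14) in CD90+ against CD38+ control cells. GADD45A had 245, 252 and 239 CPM with GATA2 overexpression, 111, 108 and 107 CPM in CD90+ controls and 184, 186 and 195 CPM in CD38+ controls. GADD45A, a stress sensor of growth arrest and of MAP kinase signalling (chromosome 1, 67685061 to 67688338, plus strand), was lowest in CD90+ control cells. It rose 2.25-fold (log2 fold change 1.17 ± 0.030 SE, edgeR adjusted p = 1.01e-15) with GATA2 overexpression and fell 1.73-fold (log2 fold change -0.79 ± 0.030 SE, edgeR adjusted p = 1.43e-13) in CD90+ against CD38+ control cells.

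PPM1D, a phosphatase that switches off p53 and its kinases, averaged 52.2 ± 0.190 CPM with GATA2 overexpression, 38.6 ± 0.690 CPM in CD90+ controls and 29.2 ± 0.909 CPM in CD38+ controls (SD, n = 3 each). It rose 1.35-fold with GATA2 overexpression and rose 1.32-fold in CD90+ against CD38+ control cells, so the feedback genes MDM2 and PPM1D moved in opposite directions. PLK2 had 72.2, 67.8 and 68.2 CPM with GATA2 overexpression, 89.4, 91.4 and 96.0 CPM in CD90+ controls and 67.3, 70.9 and 71.1 CPM in CD38+ controls. PLK2, a polo-like kinase of centriole duplication and stress checkpoints, fell 1.33-fold (log2 fold change -0.41 ± 0.039 SE, edgeR adjusted p = 4.28e-08) with GATA2 overexpression and rose 1.32-fold (log2 fold change 0.40 ± 0.039 SE, edgeR adjusted p = 4.84e-08) in CD90+ against CD38+ control cells. Between GATA2 overexpression CD90+ and CD38+ control cells its libraries overlapped (log2 fold change -0.0076 ± 0.040 SE, edgeR adjusted p = 0.864), and it was called higher with library size only (adjusted p = 0.00194) and with upper-quartile factors (adjusted p = 0.00368). PLK3 had 47.8, 49.2 and 49.3 CPM with GATA2 overexpression, 46.3, 46.5 and 48.2 CPM in CD90+ controls and 144, 146 and 157 CPM in CD38+ controls. PLK3, a polo-like kinase of stress responses, overlapped between the CD90+ groups (log2 fold change 0.053 ± 0.039 SE, edgeR adjusted p = 0.225), and with library size only it was called lower with GATA2 overexpression (log2 fold change -0.20). It fell 3.17-fold (log2 fold change -1.66 ± 0.037 SE, edgeR adjusted p = 1.26e-16) in CD90+ against CD38+ control cells.

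**Figure D3:**
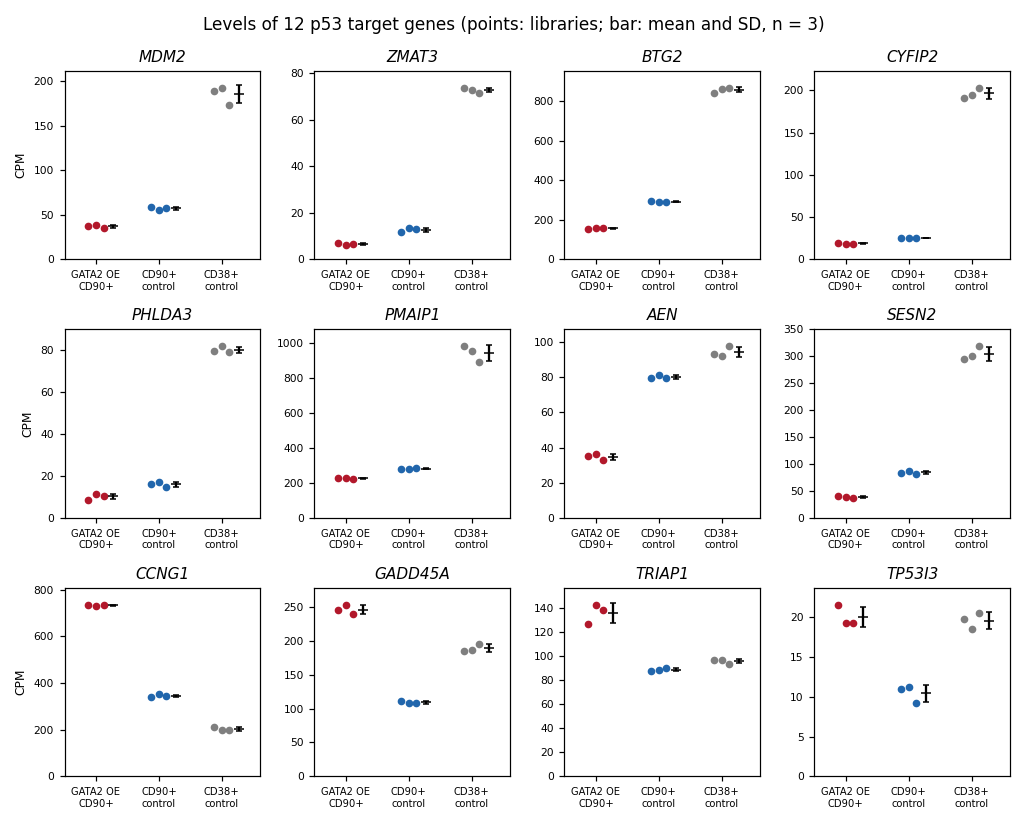
CPM of 12 p53 target genes in the 3 groups (points are libraries, bars the mean and SD, n = 3; GATA2 OE is GATA2 overexpression; each axis starts at 0). MDM2, ZMAT3, BTG2, CYFIP2, PHLDA3, PMAIP1, AEN and SESN2 are highest in CD38+ control cells, CCNG1, GADD45A and TRIAP1 with GATA2 overexpression, and TP53I3 is lowest in CD90+ control cells.

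Apoptosis genes other than APAF1 fell in CD90+ against CD38+ control cells, although AEN and TRIAP1 turned to the higher side with library size only or upper-quartile factors. Of the 15 genes, 14 fell and 0 rose, and 12 of them fell at least 2-fold, against 13.6% of all tested genes, with a median log2 fold change of -1.28. With library size only 5 of the 15 fell 2-fold, and with upper-quartile factors 8. With GATA2 overexpression 10 fell and 4 rose against CD90+ control cells, with a median of -0.40. Of all tested genes 39.6% fell and 38.0% rose in that comparison, and 39.3% fell and 41.1% rose between the controls. CYFIP2 had 19.8, 18.6 and 18.8 CPM with GATA2 overexpression, 25.0, 25.1 and 25.1 CPM in CD90+ controls and 191, 195 and 203 CPM in CD38+ controls. CYFIP2, a subunit of the WAVE actin regulatory complex linked to p53-dependent apoptosis (chromosome 5, 157266079 to 157395595, plus strand), showed the largest fall of the 32 targets in CD90+ against CD38+ control cells, where it fell 7.82-fold (log2 fold change -2.97 ± 0.037 SE, edgeR adjusted p = 6.00e-20). It fell 1.32-fold (log2 fold change -0.40 ± 0.042 SE, edgeR adjusted p = 1.75e-07) with GATA2 overexpression. PHLDA3 had 8.78, 11.3 and 10.7 CPM with GATA2 overexpression, 16.3, 16.9 and 14.9 CPM in CD90+ controls and 79.8, 81.9 and 79.3 CPM in CD38+ controls. PHLDA3, which competes with AKT for membrane lipids (chromosome 1, 201464383 to 201469237, minus strand), fell 1.57-fold (log2 fold change -0.65 ± 0.077 SE, edgeR adjusted p = 8.44e-07) with GATA2 overexpression and fell 5.01-fold (log2 fold change -2.32 ± 0.069 SE, edgeR adjusted p = 5.22e-15) in CD90+ against CD38+ control cells.

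The BH3-only genes PMAIP1 (NOXA) and BBC3 (PUMA), whose products neutralise anti-apoptotic BCL2 proteins, fell in both comparisons. PMAIP1 averaged 227 ± 3.07 CPM with GATA2 overexpression, 281 ± 3.09 CPM in CD90+ controls and 941 ± 46.0 CPM in CD38+ controls (SD, n = 3 each). It fell 1.24-fold (log2 fold change -0.31 ± 0.031 SE, edgeR adjusted p = 1.07e-07) with GATA2 overexpression and fell 3.35-fold in CD90+ against CD38+ control cells. Per kilobase of annotated exons it was the most abundant of the 32 targets in both control groups, at 126 CPM per kilobase in CD90+ and 421 CPM per kilobase in CD38+ control cells. With GATA2 overexpression it had rank 3, and CCNG1 was first at 237 CPM per kilobase. The exons of all annotated transcripts of a gene were joined, to 2235 bases for PMAIP1 and 9127 bases for RPS27L. The ranks depend on that length, which need not be the length of the transcripts expressed. BBC3 averaged 17.0 ± 0.792 CPM with GATA2 overexpression, 19.0 ± 0.265 CPM in CD90+ controls and 56.7 ± 2.27 CPM in CD38+ controls. It fell 2.99-fold in CD90+ against CD38+ control cells, and its 1.12-fold fall with GATA2 overexpression (edgeR adjusted p = 0.0125) was not called without GATA2 overexpression replicate 1 (adjusted p = 0.0779). BAX, the pore-forming effector of mitochondrial permeabilisation, averaged 139 ± 5.09 CPM with GATA2 overexpression, 104 ± 1.57 CPM in CD90+ controls and 237 ± 4.19 CPM in CD38+ controls. It rose 1.33-fold (log2 fold change 0.42 ± 0.030 SE, edgeR adjusted p = 1.01e-09) with GATA2 overexpression and fell 2.27-fold in CD90+ against CD38+ control cells.

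APAF1 had 20.8, 21.4 and 21.9 CPM with GATA2 overexpression, 35.7, 38.0 and 36.1 CPM in CD90+ controls and 34.1, 35.7 and 34.5 CPM in CD38+ controls. APAF1, the scaffold of the apoptosome that activates caspase-9, fell 1.71-fold (log2 fold change -0.78 ± 0.050 SE, edgeR adjusted p = 2.49e-10) with GATA2 overexpression. Between the control groups its libraries did not overlap but the test was not passed (log2 fold change 0.075 ± 0.048 SE, edgeR adjusted p = 0.164), and it was called higher in CD90+ control cells with RLE factors, DESeq2, library size only, upper-quartile factors, a fit on the 2 groups or a minimum of 1 CPM (adjusted p from 7.32e-08 to 0.0388). AEN had 35.1, 36.2 and 32.9 CPM with GATA2 overexpression, 79.4, 81.1 and 79.7 CPM in CD90+ controls and 93.2, 92.2 and 97.5 CPM in CD38+ controls. AEN, an exonuclease that fragments DNA in apoptosis (chromosome 15, 88621296 to 88632282, plus strand), had the largest fall of the 32 targets with GATA2 overexpression, where it fell 2.30-fold (log2 fold change -1.20 ± 0.041 SE, edgeR adjusted p = 4.10e-14). Its smaller fall in CD90+ against CD38+ control cells (log2 fold change -0.24 ± 0.038 SE, edgeR adjusted p = 2.60e-05) turned to a rise with library size only (log2 fold change 0.17) and lost its call with upper-quartile factors (0.027). PERP had 13.4, 13.01 and 14.3 CPM with GATA2 overexpression, 30.3, 31.1 and 26.5 CPM in CD90+ controls and 63.0, 65.2 and 60.8 CPM in CD38+ controls. PERP, a tetraspan membrane protein of cell junctions and of p53-dependent apoptosis, fell 2.16-fold (log2 fold change -1.11 ± 0.065 SE, edgeR adjusted p = 7.18e-11) with GATA2 overexpression and fell 2.15-fold in CD90+ against CD38+ control cells.

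The death receptor genes fell in CD90+ against CD38+ control cells and did not move alike with GATA2 overexpression. FAS, the receptor of FAS ligand, averaged 6.06 ± 0.330 CPM with GATA2 overexpression, 8.08 ± 0.818 CPM in CD90+ controls and 22.9 ± 1.35 CPM in CD38+ controls (SD, n = 3 each). It fell 1.33-fold with GATA2 overexpression and fell 2.84-fold in CD90+ against CD38+ control cells, and 380 bases of its exons overlap ACTA2 on the other strand. TNFRSF10B, the TRAIL receptor DR5, averaged 69.6 ± 3.76 CPM with GATA2 overexpression, 133 ± 0.598 CPM in CD90+ controls and 279.9 ± 5.89 CPM in CD38+ controls. It fell 1.91-fold (log2 fold change -0.93 ± 0.034 SE, edgeR adjusted p = 1.04e-13) with GATA2 overexpression and fell 2.10-fold in CD90+ against CD38+ control cells. TNFRSF10A had 10.5, 11.2 and 11.4 CPM with GATA2 overexpression, 9.35, 10.1 and 10.5 CPM in CD90+ controls and 24.9, 27.2 and 25.0 CPM in CD38+ controls. TNFRSF10A, the TRAIL receptor DR4, did not pass the test between the CD90+ groups (log2 fold change 0.14 ± 0.079 SE, edgeR adjusted p = 0.116) and fell 2.57-fold in CD90+ against CD38+ control cells. TNFRSF10C, a decoy TRAIL receptor without a death domain, averaged 13.2 ± 0.328 CPM with GATA2 overexpression, 9.25 ± 0.290 CPM in CD90+ controls and 20.0 ± 0.918 CPM in CD38+ controls. It rose 1.43-fold (log2 fold change 0.51 ± 0.077 SE, edgeR adjusted p = 1.14e-05) with GATA2 overexpression and fell 2.17-fold in CD90+ against CD38+ control cells. With GATA2 overexpression the values were thus lower for DR5 and higher for the decoy.

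The remaining apoptosis genes encode regulators. TRIAP1, a mitochondrial lipid transfer factor that restrains apoptosis, averaged 136 ± 8.10 CPM with GATA2 overexpression, 88.7 ± 1.16 CPM in CD90+ controls and 95.8 ± 1.78 CPM in CD38+ controls (SD, n = 3 each). It rose 1.53-fold (log2 fold change 0.62 ± 0.037 SE, edgeR adjusted p = 1.13e-10) with GATA2 overexpression. Its 1.08-fold fall in CD90+ against CD38+ control cells (log2 fold change -0.11 ± 0.038 SE, edgeR adjusted p = 0.0125) was lost or turned under 7 alternatives. RPS27L, a ribosomal protein paralogue that affects MDM2 and p53 stability, averaged 188 ± 1.58 CPM with GATA2 overexpression, 133 ± 1.73 CPM in CD90+ controls and 346 ± 14.8 CPM in CD38+ controls. It rose 1.41-fold (log2 fold change 0.50 ± 0.030 SE, edgeR adjusted p = 9.14e-11) with GATA2 overexpression and fell 2.60-fold in CD90+ against CD38+ control cells. TP53INP1, a nuclear cofactor of p53 and of autophagy, averaged 23.6 ± 1.84 CPM with GATA2 overexpression, 31.8 ± 1.85 CPM in CD90+ controls and 77.1 ± 2.89 CPM in CD38+ controls. It fell 1.35-fold with GATA2 overexpression and fell 2.43-fold in CD90+ against CD38+ control cells.

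All 4 repair genes fell in CD90+ against CD38+ control cells, none by 2-fold, with a median log2 fold change of -0.52. XPC had the opposite sign under library size only. With GATA2 overexpression 1 rose, 1 fell and 2 did not pass the test. Of all tested genes 39.3% fell and 41.1% rose between the controls, and 39.6% fell and 38.0% rose with GATA2 overexpression. RRM2B had 17.9, 16.3 and 17.8 CPM with GATA2 overexpression, 27.4, 25.4 and 27.5 CPM in CD90+ controls and 48.9, 46.5 and 43.0 CPM in CD38+ controls. RRM2B, the p53-inducible subunit of ribonucleotide reductase, fell 1.54-fold (log2 fold change -0.62 ± 0.063 SE, edgeR adjusted p = 8.91e-08) with GATA2 overexpression and fell 1.72-fold (log2 fold change -0.79 ± 0.059 SE, edgeR adjusted p = 1.81e-09) in CD90+ against CD38+ control cells. DDB2 had 73.0, 72.4 and 75.8 CPM with GATA2 overexpression, 63.7, 67.0 and 65.9 CPM in CD90+ controls and 92.0, 93.1 and 95.5 CPM in CD38+ controls. DDB2, which recognises ultraviolet lesions in DNA and carries the paired decamer printed above (chromosome 11, 47214465 to 47239240, plus strand), rose 1.13-fold (log2 fold change 0.17 ± 0.035 SE, edgeR adjusted p = 2.94e-04) with GATA2 overexpression. This rise was lost with upper-quartile factors (adjusted p = 0.165) and with a minimum of 1 CPM (adjusted p = 0.0659), and with library size only the log2 fold change was -0.078. DDB2 fell 1.43-fold (log2 fold change -0.51 ± 0.034 SE, edgeR adjusted p = 3.73e-10) in CD90+ against CD38+ control cells.

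POLH had 14.1, 13.9 and 13.9 CPM with GATA2 overexpression, 15.6, 13.2 and 13.4 CPM in CD90+ controls and 19.4, 20.6 and 21.1 CPM in CD38+ controls. POLH, the DNA polymerase that copies past ultraviolet lesions, overlapped between the CD90+ groups (log2 fold change -0.010 ± 0.079 SE, edgeR adjusted p = 0.908) and fell 1.45-fold in CD90+ against CD38+ control cells, a call lost with library size only (adjusted p = 0.155). XPC had 13.9, 14.2 and 15.4 CPM with GATA2 overexpression, 15.4, 15.5 and 14.4 CPM in CD90+ controls and 17.6, 19.7 and 18.6 CPM in CD38+ controls. XPC, a damage sensor of nucleotide excision repair, overlapped between the CD90+ groups as well (log2 fold change -0.059 ± 0.075 SE, edgeR adjusted p = 0.477). Its 1.23-fold fall in CD90+ against CD38+ control cells was lost with upper-quartile factors (adjusted p = 0.649) and turned to a log2 fold change of 0.11 with library size only. Exons of XPC overlap LSM3 on the other strand by 318 bases and AC093495.1 by 1140 bases. For POLH and XPC, with library size only, the GATA2 overexpression values were called lower than in CD90+ control cells (log2 fold changes of -0.26 and -0.31), as was XPC with upper-quartile factors (-0.17).

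The 5 metabolic and redox targets fell in CD90+ against CD38+ control cells, apart from SESN1 under library size only or upper-quartile factors. With GATA2 overexpression 2 of 5 rose and 2 fell, where 38.0% of all tested genes rose and 39.6% fell, so these counts are near the background. Between the controls 39.3% of all tested genes fell and 41.1% rose. SESN2 had 40.1, 39.3 and 37.8 CPM with GATA2 overexpression, 84.4, 87.3 and 82.5 CPM in CD90+ controls and 294, 301 and 318 CPM in CD38+ controls. SESN2, a leucine sensor that inhibits mTORC1 (chromosome 1, 28259527 to 28282491, plus strand), fell 2.17-fold (log2 fold change -1.12 ± 0.038 SE, edgeR adjusted p = 3.57e-14) with GATA2 overexpression and fell 3.59-fold (log2 fold change -1.85 ± 0.034 SE, edgeR adjusted p = 7.87e-18) in CD90+ against CD38+ control cells. SESN1, its paralogue, averaged 25.6 ± 0.916 CPM with GATA2 overexpression, 33.9 ± 1.05 CPM in CD90+ controls and 39.3 ± 0.974 CPM in CD38+ controls (SD, n = 3 each). It fell 1.33-fold (log2 fold change -0.41 ± 0.050 SE, edgeR adjusted p = 1.12e-06) with GATA2 overexpression, and its 1.16-fold fall in CD90+ against CD38+ control cells turned to a rise with library size only (log2 fold change 0.20) and lost its call with upper-quartile factors (0.052). TP53I3 had 21.5, 19.3 and 19.2 CPM with GATA2 overexpression, 10.9, 11.2 and 9.20 CPM in CD90+ controls and 19.7, 18.4 and 20.4 CPM in CD38+ controls. TP53I3, a quinone oxidoreductase that generates reactive oxygen species, rose 1.91-fold (log2 fold change 0.94 ± 0.086 SE, edgeR adjusted p = 2.79e-08) with GATA2 overexpression and fell 1.87-fold (log2 fold change -0.90 ± 0.086 SE, edgeR adjusted p = 4.08e-08) in CD90+ against CD38+ control cells. Its libraries overlapped between GATA2 overexpression CD90+ and CD38+ control cells (log2 fold change 0.034 ± 0.084 SE, edgeR adjusted p = 0.713).

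FDXR had 27.2, 28.9 and 25.6 CPM with GATA2 overexpression, 21.4, 21.8 and 21.2 CPM in CD90+ controls and 46.3, 50.6 and 54.0 CPM in CD38+ controls. FDXR, the mitochondrial reductase that passes electrons to ferredoxin for steroid and iron-sulphur cluster synthesis, rose 1.27-fold (log2 fold change 0.34 ± 0.062 SE, edgeR adjusted p = 9.78e-05) with GATA2 overexpression, a call lost with library size only (adjusted p = 0.183). It fell 2.34-fold (log2 fold change -1.23 ± 0.061 SE, edgeR adjusted p = 5.80e-12) in CD90+ against CD38+ control cells. GDF15 had 14.7, 19.0 and 16.1 CPM with GATA2 overexpression, 15.9, 15.9 and 16.9 CPM in CD90+ controls and 35.8, 36.4 and 35.2 CPM in CD38+ controls. GDF15, a secreted stress cytokine that acts on appetite and energy balance, overlapped between the CD90+ groups (log2 fold change 0.030 ± 0.078 SE, edgeR adjusted p = 0.739) and was called lower with GATA2 overexpression with library size only (log2 fold change -0.22). It fell 2.20-fold (log2 fold change -1.14 ± 0.076 SE, edgeR adjusted p = 3.44e-10) in CD90+ against CD38+ control cells. Of the genes whose windows held a decamer with no mismatch, AEN, FAS, PLK2 and SESN1 thus fell with GATA2 overexpression. DDB2, FDXR and RPS27L rose, DDB2 with the opposite sign under library size only. MDM2, whose windows held a pair only with mismatches, fell.

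**Figure D4:**
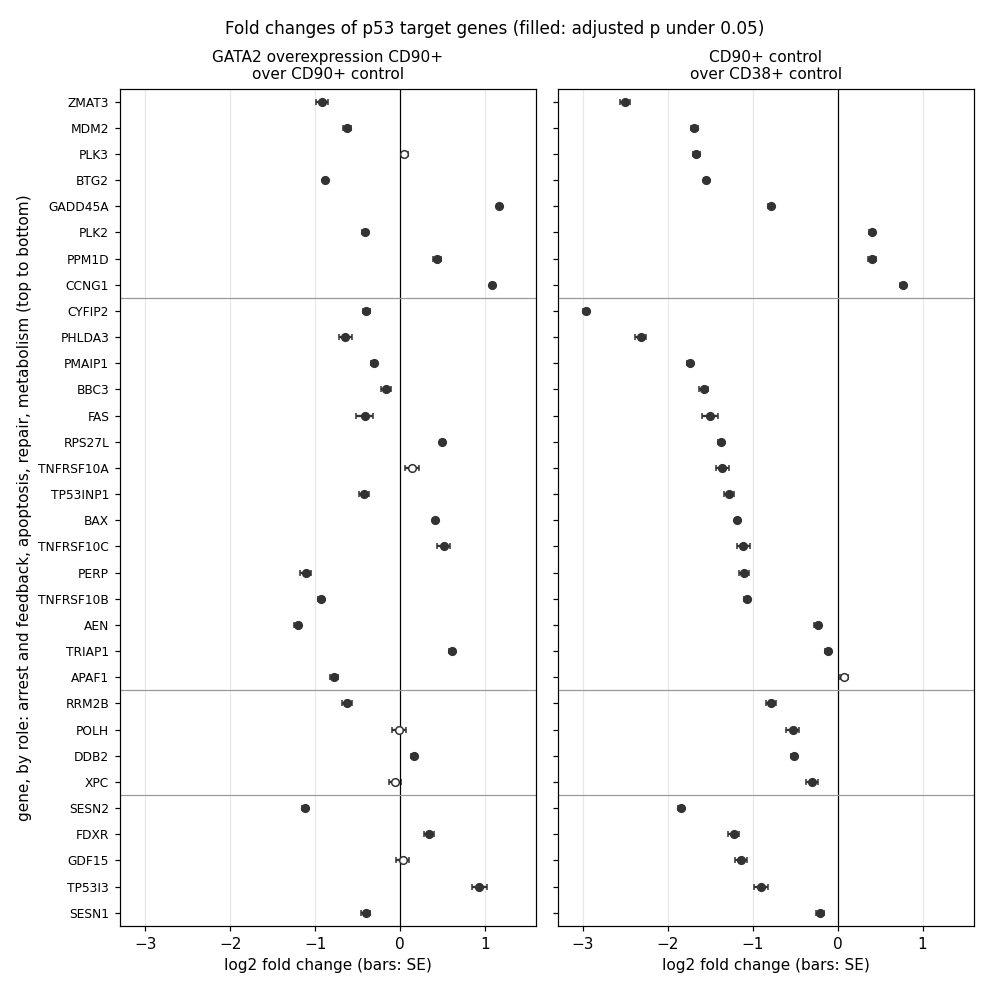
Log2 fold changes of the 32 targets (points; bars are SE; filled where the adjusted p is under 0.05) for GATA2 overexpression over control in CD90+ cells (left) and for CD90+ over CD38+ control cells (right), by role from top to bottom. On the left 10 filled points lie right of 0 and 17 left of it, and on the right 3 and 28.

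A further list of 30 p53 targets, of which 28 were tested, held genes called in both directions. With GATA2 overexpression 10 rose and 14 fell, with a median log2 fold change of -0.11, and in CD90+ against CD38+ control cells 9 rose and 17 fell, with a median of -0.33. Of all tested genes 38.0% rose and 39.6% fell in the first comparison, and 41.1% rose and 39.3% fell in the second. CDKN1A had 129, 128 and 130.0 CPM with GATA2 overexpression, 433, 431 and 434 CPM in CD90+ controls and 1256, 1300.5 and 1323 CPM in CD38+ controls. CDKN1A encodes p21, the inhibitor of cyclin-dependent kinases through which p53 arrests the cell cycle (chromosome 6, 36676460 to 36687339, plus strand), and its groups did not overlap. It fell 3.35-fold (log2 fold change -1.75 ± 0.025 SE, edgeR adjusted p = 1.01e-18) with GATA2 overexpression and fell 2.99-fold (log2 fold change -1.58 ± 0.024 SE, edgeR adjusted p = 7.14e-19) in CD90+ against CD38+ control cells. TIGAR, a phosphatase that slows glycolysis, fell 5.51-fold (log2 fold change -2.46 ± 0.070 SE, edgeR adjusted p = 3.72e-15) and TRIM22, an antiviral ubiquitin ligase, fell 4.38-fold with GATA2 overexpression. In CD90+ against CD38+ control cells the receptor tyrosine kinase gene EPHA2 rose 7.66-fold, from a low level of 0.968 CPM to 7.42 CPM. At least 2-fold rises and falls of this list numbered 5 and 5 there, against 22.6% and 13.6% of tested genes. CMBL, a hydrolase gene, rose 12.6-fold in GATA2 overexpression CD90+ against CD38+ control cells, from 2.52 CPM to 31.8 CPM. In that comparison 3 of the list rose and 9 fell at least 2-fold, against 23.0% and 21.2% of tested genes.

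Some of the 32 targets are also activated by ATF4 or CHOP, factors of the integrated stress response, and genes of that response moved in the same libraries. A list of 20 ATF4 and CHOP targets that are no members included ATF4 and DDIT3, the gene of CHOP, themselves. With GATA2 overexpression 18 of the 20 fell (median log2 fold change -1.59), against 39.6% of all tested genes. The 1 that rose was ATF4, at 959 CPM against 903 CPM in CD90+ controls. In CD90+ against CD38+ control cells all 20 fell (median -1.01), against 39.3% of all tested genes. The summed level of these 20 genes was 2759 to 2819.8 CPM in GATA2 overexpression, 4231 to 4261 CPM in CD90+ control and 8549 to 8760.3 CPM in CD38+ control libraries. PPP1R15A and ATF4 were the most abundant in both CD90+ groups, and PPP1R15A and TRIB3 in CD38+ control cells. Of the 6 members that ATF4 or CHOP also activate (SESN2, GDF15, TNFRSF10B, BBC3, PMAIP1 and GADD45A), all fell in CD90+ against CD38+ control cells, with a median of -1.36. Among the other 26 members 22 fell and 3 rose, with a median of -1.11, where 39.3% of all tested genes fell and 41.1% rose. With GATA2 overexpression these medians were -0.23 for the 6 and -0.23 for the 26. The part of this response in the changes of the targets was not tested.

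Marker genes of other cell types differed between the groups as well. The summed level of 10 macrophage markers was 863 to 916 CPM in GATA2 overexpression, 2393 to 2432 CPM in CD90+ control and 3632 to 3673 CPM in CD38+ control libraries, with no marker at 0 in any group, and 9 of 9 tested fell with GATA2 overexpression. In CD90+ against CD38+ control cells 5 rose and 4 fell, with CSF1R at 1068 CPM in CD90+ and 416 CPM in CD38+ controls and LYZ at 359 CPM in CD90+ and 1625 CPM in CD38+ controls. CD68, the macrophage marker that failed the filter on low counts, was barely detected in any group. It averaged 0.017 CPM with GATA2 overexpression, 0.18 CPM in CD90+ controls and 0.24 CPM in CD38+ controls. Mesenchymal markers, 8 genes, summed to 262 to 281 CPM with GATA2 overexpression, 1093 to 1112 CPM in CD90+ controls and 16.0 to 17.1 CPM in CD38+ controls, with POSTN at 0 in CD38+ control cells. Mast cell and basophil markers, 8 genes with none at 0, summed to 144 to 159.6 CPM with GATA2 overexpression, 98.8 to 133 CPM in CD90+ controls and 1579 to 1614 CPM in CD38+ controls, mainly through HDC in CD38+ control cells. Against CD90+ controls 7 rose and 1 fell with GATA2 overexpression, and 2 rose and 4 fell in CD90+ against CD38+ control cells. FCER1A ran against the sum, at 20.1 CPM with GATA2 overexpression, 2.48 CPM in CD90+ controls and 1.03 CPM in CD38+ controls. IL3RA varied within groups, from 7.27 to 40.7 CPM in CD90+ controls and from 17.9 to 58.6 CPM in CD38+ controls. Endothelial markers, 6 genes, summed to 616 to 655 CPM with GATA2 overexpression, 383 to 392 CPM in CD90+ controls and 417 to 444 CPM in CD38+ controls, with EMCN at 0 in CD38+ control cells. Of these, 4 rose and 1 fell in CD90+ against CD38+ control cells, and PECAM1, at 178 CPM in CD90+ and 312 CPM in CD38+ controls, carried most of the sum in CD38+ controls. With GATA2 overexpression 4 rose against CD90+ controls, among them ESAM at 295 CPM against 110 CPM. KDR fell, at 29.3 CPM against 55.0 CPM. Erythroid markers, 7 genes, summed to 337 to 405 CPM with GATA2 overexpression, 755 to 777 CPM in CD90+ controls and 196 to 205 CPM in CD38+ controls, with AHSP at 0 in CD38+ control cells. Haematopoietic progenitor markers, 6 genes with none at 0, summed to 1206 to 1231 CPM with GATA2 overexpression, 519 to 542 CPM in CD90+ controls and 625 to 691 CPM in CD38+ controls. Of these, 3 rose and 3 fell in CD90+ against CD38+ control cells, with CD34 at 122 CPM in CD90+ and 15.1 CPM in CD38+ controls and PTPRC at 118 CPM in CD90+ and 257 CPM in CD38+ controls. With GATA2 overexpression 5 rose against CD90+ controls, among them CD34 at 389 CPM, and PTPRC fell, at 36.4 CPM. The part of these cells in the changes of the targets was not tested.

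Set against CD38+ control cells, the GATA2 overexpression CD90+ cells had lower levels of most targets. ZMAT3 fell 10.8-fold, CYFIP2 fell 10.3-fold, PHLDA3 fell 7.84-fold and SESN2 fell 7.80-fold, while CCNG1 rose 3.61-fold, PPM1D rose 1.79-fold, TRIAP1 rose 1.42-fold and GADD45A rose 1.30-fold. The 32 targets together made up 0.248 ± 0.00136% of all counts with GATA2 overexpression, 0.266 ± 0.00124% in CD90+ control cells and 0.434 ± 0.00258% in CD38+ control cells (SD, n = 3 each), a share that TMM factors do not enter. Their summed CPM, which TMM factors do enter, was 2528 ± 10.2 with GATA2 overexpression, 2287 ± 3.48 in CD90+ control cells and 4955 ± 32.5 in CD38+ control cells, so the direction of the total between the CD90+ groups depends on the scaling. CCNG1 alone was at 732 CPM with GATA2 overexpression and 345 CPM in CD90+ control cells, a larger difference than that between the 2 sums.

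**Figure D5:**
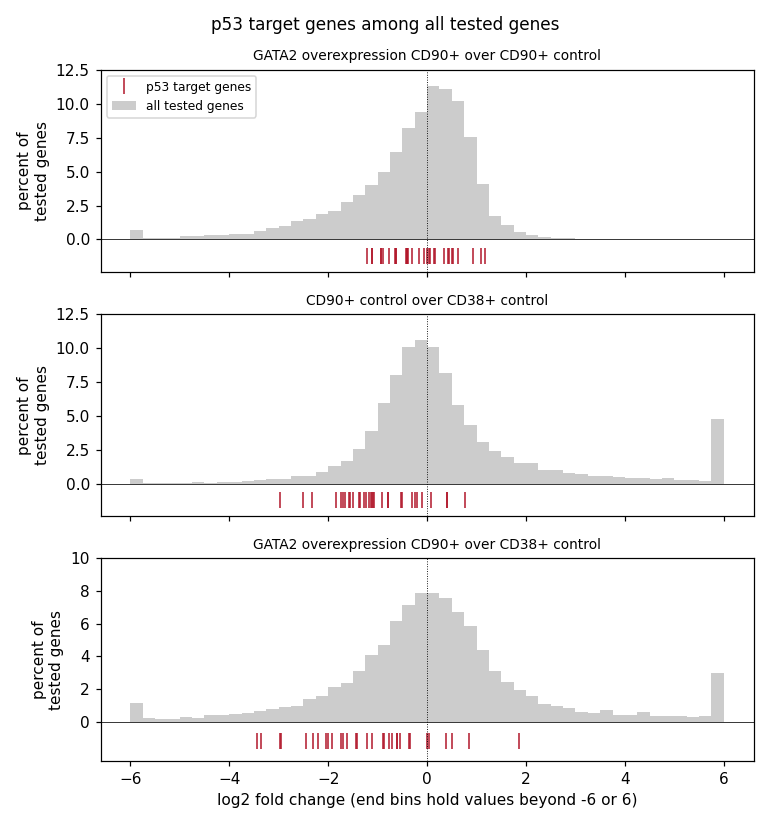
Log2 fold changes of the 32 targets (red ticks) below the distribution over all 16232 tested genes (grey bars, percent of genes per bin) in the 3 comparisons. The ticks lie on both sides of 0 for GATA2 overexpression over CD90+ control and mostly left of 0 in the comparisons with CD38+ control cells.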

How the data were processed

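Strand-specific libraries with paired reads were sequenced, per the labels' protocols. The deposited values are counts of reads per gene symbol, made with HISAT2 and featureCounts on hg38, per the submitters' processing notes; the sources used here name no annotation, strand setting or version. Exons of 12 members overlap a gene on the other strand and 4 one on the same strand, and 3 have annotated copies (CCNG1, TRIAP1, POLH), so their counts are uncertain to that extent. Positions and exon lengths are from GENCODE release 29 on GRCh38, and promoters are from RefSeq.

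Genes were tested with edgeR 4.0.16 in R 4.3.3 by its quasi-likelihood method after TMM scaling and filterByExpr (minimum count 10, minimum total 15) and group means over all 9 libraries, adjusted over 16232 genes. Standard errors are the log2 fold change over the square root of F. Replicates differed beyond counting noise (chi-square 3.96 to 7.84 per degree of freedom), and the lowest count of a member was 223 (FAS) in a library of 37500192 counts or more, so counting error is a larger part of the spread for FAS and ZMAT3 than for abundant members. The script was tested on simulated data.

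Members, roles and lists were chosen with earlier results of these data known. Of 153 list symbols 1 (COP1) was not analysed here. Values in every library are given for MDM2, for the 2 called members of a role with the largest change in the first or second comparison, and for members not called in a comparison. From the further lists MDM4, CDKN1A and the 2 largest changes per comparison are named, except for some genes that are not reported here. Alternatives were RLE factors, library size only, upper-quartile factors, 2 other filters, DESeq2 1.42.0, limma voom (limma 3.58.1), a fit on the 2 groups, a replicate block and leaving out each library.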

Additional observations from a re-analysis of the deposited data

How the results depend on the processing

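Of 18 alternatives, 9 left out a library. The number of targets called higher in CD90+ over CD38+ control cells was 3 and became 7 with library size only and 5 with upper-quartile factors. The other counts of targets called higher or lower stayed within 1.5 times under these alternatives, but counts past 2-fold did not. For GATA2 overexpression over CD90+ control, 2-fold rises and falls numbered 2 and 3, against 0 and 7 with library size only, 1 and 5 with upper-quartile factors and 1 and 5 with a minimum of 1 CPM. For CD90+ over CD38+ control they numbered 0 and 19, against 1 and 10 with library size only and 1 and 13 with upper-quartile factors. For GATA2 overexpression CD90+ over CD38+ control they numbered 1 and 17, against 2 and 16 with library size only. Targets not called numbered 5, 1 and 2 in the 3 comparisons, 3, 2 and 0 with library size only, and 5, 3 and 1 with upper-quartile factors. Without 1 library, targets called higher and lower numbered 10 to 10 and 16 to 17 for GATA2 overexpression over CD90+ control, 3 to 3 and 27 to 28 for CD90+ over CD38+ control, and 4 to 4 and 26 to 26 for GATA2 overexpression CD90+ over CD38+ control. With library size only, log2 fold changes turned sign against CD90+ control for PLK3 (-0.20), DDB2 (-0.078) and GDF15 (-0.22) with GATA2 overexpression, and in CD90+ over CD38+ control cells for AEN (0.17), TRIAP1 (0.30), XPC (0.11) and SESN1 (0.20). PLK2 reached 0.15 for GATA2 overexpression CD90+ over CD38+ control. TNFRSF10A, called under none of the alternatives, ran from -0.11 to 0.18 over them for GATA2 overexpression over CD90+ control, so its sign changed too. With upper-quartile factors AEN (0.027), TRIAP1 (0.15) and SESN1 (0.052) turned in CD90+ over CD38+ control cells, and PLK2 reached 0.14. These scalings shift all genes by construction. The TRIAP1 call was also lost with RLE factors (adjusted p = 0.134), DESeq2 (0.161), a minimum of 1 CPM (0.469), a fit on the 2 groups (0.0938) and without CD90+ control replicate 1 (0.0540).

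No pairing by replicate number was visible. Deviations of same-numbered libraries correlated at -0.029 to 0.026, and those of differently numbered libraries at -0.032 to 0.032. These values cannot tell whether libraries of the same replicate number were cultured or processed together. With the number as a replicate block, 10 and 17 targets were called higher and lower for GATA2 overexpression over CD90+ control, 3 and 28 for CD90+ over CD38+ control, and 4 and 26 for GATA2 overexpression CD90+ over CD38+ control, and no call of a target changed.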
